A study of Rattus norvegicus with 18 samples.

Results

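Genes of growth arrest and the p53 response were followed in rat sciatic nerve over the first hours after a segment of the nerve was cut out: Cdkn1a, Gadd45a, Gadd45b, Gadd45g, Btg1, Btg2, Mdm2, Myc and Ccnd1. They are 9 of 35278 genes on the array, chosen by name, and 12 of its 41012 probes measure them. The nerve was the proximal stump, 0.5 cm of sciatic nerve on the side of the spinal cord, from adult male Sprague-Dawley rats. All animals were anaesthetized with trichloroacetaldehyde monohydrate, magnesium sulfate and sodium pentobarbital, and a segment of 1 cm was removed from the left nerve at mid-thigh. Nerve taken at once (0 h) was the control, and nerve was also taken 0.5 h and 1 h after the operation and in later groups at 3 h, 6 h or 9 h, with 3 arrays for each of these 6 times. Neither labels nor methods say if each array was hybridised with pooled or single rats, so P-values measure the spread between these arrays, which may be technical in part.

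The transcription factor p53 is kept low in unstressed cells by Mdm2, a ubiquitin ligase that marks it for destruction and is itself a p53 target. When p53 is stabilised it switches on Cdkn1a, which encodes p21, an inhibitor of the cyclin-dependent kinases, and it can switch on Gadd45a, Btg2 and Mdm2. The 3 Gadd45 genes encode small stress proteins that bind p21, PCNA and the kinase Map3k4, and Btg1 and Btg2 encode antiproliferative proteins that recruit the CCR4-NOT complex to shorten the poly(A) tails of mRNA. Myc, a transcription factor of growth and ribosome production, and Ccnd1, cyclin D1, drive cells from rest towards division. Several of these genes also respond to serum, cytokines or stress kinases without p53, and Schwann cells of a cut nerve go back into the cell cycle only days after the injury.

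The promoters of 4 of the members are shown because these genes had the largest changes among the members whose promoter was at hand, highest at 0.5 h for Btg2, at 1 h for Gadd45g and at 3 h for Gadd45b and Cdkn1a. Each line gives the 250 bases before the annotated start of the gene on the gene's own strand, 5′ to 3′, from RefSeq on the GRCr8 build, at chr13:48087691-48087940 for Btg2, chr17:13530352-13530601 for Gadd45g and chr7:9430719-9430968 for Gadd45b, all 3 on the minus strand, and at chr20:7150682-7150931 on the plus strand for Cdkn1a. Capitals mark a cAMP response element (TGACGTCA) in Btg2, an E-box (CACGTG) in Gadd45g and Gadd45b, a TATA box (TATAAA) in Gadd45g and a p53 half-site in Cdkn1a.
Btg2: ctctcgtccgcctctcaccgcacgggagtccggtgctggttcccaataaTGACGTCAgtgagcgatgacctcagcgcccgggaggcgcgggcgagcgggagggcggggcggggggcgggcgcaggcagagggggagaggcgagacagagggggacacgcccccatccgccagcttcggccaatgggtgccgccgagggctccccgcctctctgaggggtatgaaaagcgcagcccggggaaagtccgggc
Gadd45g: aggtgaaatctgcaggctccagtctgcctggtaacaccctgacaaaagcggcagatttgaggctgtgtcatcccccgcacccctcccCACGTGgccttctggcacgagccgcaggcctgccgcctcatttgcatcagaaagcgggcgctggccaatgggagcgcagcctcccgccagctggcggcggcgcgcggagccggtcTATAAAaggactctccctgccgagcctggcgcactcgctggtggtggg
Gadd45b: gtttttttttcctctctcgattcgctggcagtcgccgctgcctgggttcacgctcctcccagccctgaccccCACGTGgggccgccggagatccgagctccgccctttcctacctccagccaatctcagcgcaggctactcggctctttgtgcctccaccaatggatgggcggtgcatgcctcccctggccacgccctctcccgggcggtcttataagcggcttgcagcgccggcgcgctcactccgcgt
Cdkn1a: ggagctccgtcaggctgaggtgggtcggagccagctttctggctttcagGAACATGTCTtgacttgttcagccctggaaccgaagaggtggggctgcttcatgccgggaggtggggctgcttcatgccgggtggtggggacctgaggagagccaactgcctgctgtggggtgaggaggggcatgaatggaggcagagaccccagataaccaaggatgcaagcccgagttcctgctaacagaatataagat
The RefSeq table held 7 of the 9 members, all but Myc and Ccnd1, and all motifs but TATAAA were searched on both strands. The cAMP response element began 201 bases before the start of Btg2 and was found in no other member, while 1.59% of 33469 rat promoters of this length hold one. The E-box began 163 bases before the start of Gadd45g and 178 bases before that of Gadd45b, and 5.59% of promoters hold one. TATAAA was found in Gadd45g alone, 48 bases before the start, against 8.06% of promoters. A p53 half-site was found in Cdkn1a and Gadd45a, against 6.64% of promoters. GC boxes (GGGCGG), held by 30.5% of promoters, were found in Gadd45a, Gadd45b, Btg1, Btg2 (where 2 of 3 overlap) and Mdm2, and are left in lower case. The AP-1 letters TGANTCA (6.34% of promoters), the NF-kB motif (3.54%) and the CArG motif of the serum response (1.50%) were not in these 7 windows. A match is a description of the letters and not a measured site.

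The values below are log2 processed signals relative to the 75th percentile of their array, so that 0 is the level below which 75% of the spots of an array lie, and they are compared only within a probe. Called means below 0.01 in limma's moderated test before adjustment and below 0.05 after Benjamini-Hochberg adjustment over all 32111 probes tested, and a gene with more than 1 probe is given by its brightest. All 9 members passed the filter on dim probes, and their brightest probes were well above background on all 18 arrays. An F-test of any difference among the 6 times called 8 of the 9 members, all but Mdm2, against 34.6% of the 27199 genes tested. At 0.5 h 4 members were called higher than at 0 h (Btg2, Gadd45b, Gadd45g and Myc), against 4.28% of all genes. The same 4 were called higher at 1 h, against 3.59%. At 3 h 7 were called higher, against 7.15%, and Ccnd1 was called lower, against 6.83%. At 6 h 7 were called higher, against 12.0%, and at 9 h 4 were (Cdkn1a, Gadd45b, Gadd45g and Myc), against 15.8%. Members whose 3 arrays all lay above the 3 of 0 h numbered 5 at 0.5 h and 4 at 1 h, beside 18.4% and 18.9% of all genes. They numbered 8 at 3 h, 7 at 6 h and 5 at 9 h, beside 20.8%, 24.2% and 28.5%. Ccnd1 lay wholly below 0 h at 3 h and 6 h, as did 17.7% and 22.4% of all genes. The median change of the 9 members was 0.28 at 0.5 h, 1.15 at 3 h and 0.37 at 9 h, beside 0.0024, 0.00037 and 0.014 for all genes tested.

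**Figure D1:**
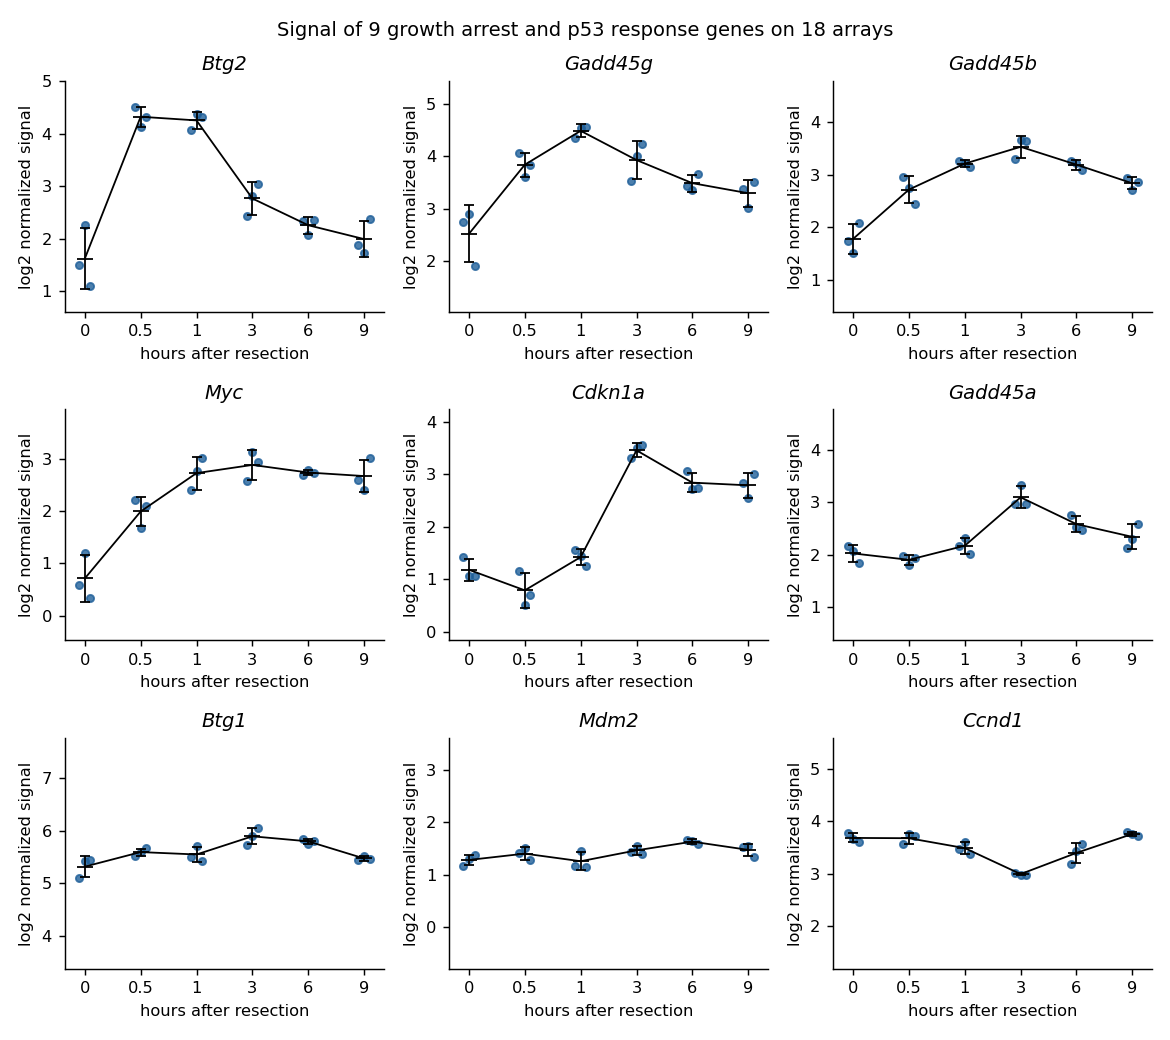
Log2 normalized signal of the brightest probe of each of the 9 genes (y axis, all panels equally high in log2 units) against hours after resection (x axis, evenly spaced categories). Points are single arrays, and black lines and bars are the mean and SD of 3 arrays. Btg2 stood highest at 0.5 h and 1 h, Gadd45g at 1 h, Cdkn1a, Gadd45a and Gadd45b at 3 h, and Ccnd1 lowest at 3 h.

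Some facts of the whole series touch these results. By their headers the 6 arrays of 0 h and 0.5 h share a scan day, those of 1 h, 3 h and 6 h share a later one with 2 of 9 h, and the remaining array of 9 h has its own. Scan day and time therefore cannot be told apart in any comparison of 1 h to 9 h with 0 h or 0.5 h. The comparisons of 3 h, 6 h and 9 h with 1 h are given for that reason. Each of the 9 slides held arrays of only 1 time-point, and 0 h, 1 h and 6 h each lay on 1 slide, so slide and time cannot be told apart there, within a scan day as well. All 14 Schwann cell markers, among them Mbp, S100b and Sox10, were well above background on all 18 arrays. The summed signal of 11 neutrophil markers, relative to the median at 0 h, was 0.902 to 1.07 at 0 h, 1.38 to 2.37 at 0.5 h, 1.69 to 2.22 at 1 h, 3.52 to 8.45 at 3 h and 6.98 to 8.20 at 9 h. Of these markers 9 of 11 were called higher at 3 h and 10 of 11 at 6 h and 9 h, and only Mmp8 at 0 h and Mmp9 at 0.5 h and 1 h were above background on no array of a time-point. The sum of 10 macrophage markers went from 0.923 to 1.09 at 0 h to 1.94 to 2.34 at 9 h, and those of 14 Schwann cell, 10 endothelial and 9 fibroblast markers were 0.723 to 0.822, 0.697 to 0.724 and 0.663 to 0.703 at 9 h. Single markers went both ways in most of these lists. Called higher and lower at 9 h were 3 and 1 macrophage, 2 and 5 Schwann cell, 2 and 3 endothelial and 0 and 5 fibroblast markers. Of all genes 15.8% were called higher and 15.4% lower. Skeletal muscle markers varied within every time-point, and their sum was 9.84 on replicate 1 of 0 h against 0.718 and 1.00 on the other 2 arrays. The sums of adipocyte and erythroid markers were 0.771 to 1.37 and 0.167 to 1.04 at 0 h and 1.24 to 1.57 and 0.693 to 1.18 at 9 h. The part of the cell types in the changes below was not tested, and in such bulk tissue fewer cells of a type and less RNA per cell cannot be told apart.

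The 3 Gadd45 genes had their highest means at different times, Gadd45g at 1 h and the others at 3 h. Gadd45b and Gadd45g were called higher at all 5 time-points, and Gadd45a only at 3 h and 6 h. Gadd45g, on chromosome 17 with its probe at 19231059 to 19231118 of the rn4 build, read 2.76, 2.91 and 1.91 on the 3 arrays of 0 h. It had reached 4.07, 3.62 and 3.84 by 0.5 h, and stood at 4.35, 4.55 and 4.57 by 1 h. The 3 h arrays read 3.54, 4.02 and 4.24, the 6 h arrays 3.43, 3.37 and 3.67, and the 9 h arrays 3.37, 3.01 and 3.51. All later arrays lay above all 3 arrays of 0 h, and the level was highest at 1 h. There it was 1.96 ± 0.24 (SE) above 0 h on the log2 scale, or 3.90-fold (limma adjusted P-value 0.00041). Against 1 h it was lower at 6 h, with an interval of -1.52 to -0.48, and at 9 h, by a log2 change of -1.19 (adjusted P-values 0.0085 and 0.0025). At 9 h it was still 1.71-fold above 0 h (adjusted P-value 0.024), a log2 change of 0.77 that was 0.46 without replicate 3 of 0 h, the array with the lowest value. The call was lost without that array or without replicate 1 or 3 of 9 h (adjusted P-values 0.111, 0.065 and 0.091), and with replicate number as a block (0.036, unadjusted 0.012). With normexp background correction the calls of Gadd45g at 0.5 h, 6 h and 9 h were lost (adjusted P-values 0.065, 0.062 and 0.114), as were its call at 6 h against 1 h (0.062) and that of Gadd45b at 0.5 h (0.068). Scaling to the median also ended the call of Gadd45g at 9 h (0.051).

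Gadd45b, whose probe lies on chromosome 7 at 10289049 to 10289076, had its highest mean later. It read 1.74, 1.51 and 2.08 in control nerve, then 2.96, 2.74 and 2.45 at 0.5 h. The 1 h arrays read 3.27, 3.22 and 3.15, the 3 h arrays 3.30, 3.66 and 3.64. Those of 6 h read 3.27, 3.22 and 3.09, and those of 9 h read 2.93, 2.71 and 2.86. No array after injury overlapped with 0 h, and the highest mean was at 3 h, 1.75 ± 0.15 (SE) above 0 h or 3.37-fold (adjusted P-value 1.1e-05). Its neighbours in time did not differ from 3 h past the threshold: the change from 1 h to 3 h was 0.32 with a 95% interval of -0.01 to 0.65, and that from 3 h to 6 h was -0.34 with an interval of -0.67 to -0.01. At 9 h it was 2.08-fold above 0 h (adjusted P-value 0.0002).

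Gadd45a, the member of the family best known as a p53 target, has its probe on chromosome 4 at 96650454 to 96650513. It read 2.16, 2.07 and 1.84 in control nerve. The 0.5 h arrays read 1.97, 1.80 and 1.93 and the 1 h arrays 2.17, 2.32 and 2.02, so that the first 3 time-points overlapped. The arrays of 3 h, with 2.97, 3.33 and 2.97, all lay above these. The mean then went down to 2.58 ± 0.15 (SD, n = 3) at 6 h and 2.34 ± 0.24 at 9 h. The change from 0 h was 1.07 ± 0.14 (SE) at 3 h, or 2.10-fold (adjusted P-value 0.00028), and 0.56 at 6 h (adjusted P-value 0.011), which moved to 0.052 without replicate 3 of 0 h and to 0.050 without replicate 1 of 6 h. Against 1 h it was 1.90-fold higher at 3 h (adjusted P-value 0.0013, or 0.054 and not called with only the 6 arrays compared). At 0.5 h the interval of its change was -0.43 to 0.19, and at 1 h it was -0.16 to 0.46.

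The 2 BTG genes differed in size and time. Btg2 showed the largest change of all members, and within 0.5 h. Its probe, on chromosome 13 at 47027022 to 47027081, read 1.50, 2.25 and 1.10 at 0 h and 4.51, 4.13 and 4.32 at 0.5 h. At 1 h it still read 4.07, 4.37 and 4.31. The 3 h arrays had come down to 2.43, 2.81 and 3.05, the 6 h arrays to 2.34, 2.07 and 2.36, and the 9 h arrays to 1.88, 1.72 and 2.37. The groups of 0.5 h, 1 h and 3 h lay wholly above 0 h, and those of 6 h and 9 h overlapped with it. The change was 2.70 ± 0.25 (SE) at 0.5 h, or 6.52-fold (adjusted P-value 6.9e-05), 6.21-fold at 1 h and 2.21-fold at 3 h (adjusted P-value 0.0091, or 0.078 with normexp correction). The interval of the step from 0.5 h to 1 h was -0.62 to 0.48. Against 1 h, Btg2 had log2 changes of -1.49, -2.00 and -2.26 at 3 h, 6 h and 9 h (adjusted P-values 0.0024, 0.00012 and 3.5e-05). At 6 h and 9 h it was not called against 0 h (0.64 and 0.37, adjusted P-values 0.079 and 0.27), but it was called at both without replicate 2 of 0 h, the highest control (0.96 and 0.69, adjusted P-values 0.0097 and 0.034).

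Btg1, on chromosome 7 with its probe at 34031368 to 34031427, moved little. The control arrays read 5.09, 5.42 and 5.44. Those of 0.5 h read 5.52, 5.59 and 5.66, and those of 1 h 5.49, 5.71 and 5.43. The highest values were the 5.73, 5.90 and 6.04 of the 3 h arrays, followed by the 5.84, 5.75 and 5.79 of 6 h, and the 9 h arrays read 5.44, 5.52 and 5.46. It was called higher at 3 h (0.58 ± 0.11 SE, 1.49-fold, adjusted P-value 0.0036) and at 6 h (0.48, adjusted P-value 0.0056). At 0.5 h all 3 arrays also lay above those of 0 h, as they did for 18.4% of all genes, but limma did not call this change of 0.28 (adjusted P-value 0.159). With quantile normalization it was called there (0.39, adjusted P-value 0.048). The change at 9 h, 0.16 and not called, was called with quantile normalization (0.34, adjusted P-value 0.019) and with the deposited matrix (0.32, adjusted P-value 0.022). With normexp background correction Btg1 was called at neither 3 h nor 6 h nor in the F-test (adjusted P-values 0.194, 0.108 and 0.237), and with scaling to the median its calls at 6 h and in the F-test were lost (0.071, and 0.034 with an unadjusted P-value of 0.011).

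Cdkn1a rose between 1 h and 3 h. It is measured by a probe printed on 10 spots, on chromosome 20 at 7386596 to 7386655, and by a dim probe at 7385506 to 7385565. The first read 1.42, 1.07 and 1.05 in control nerve, and was 1.15, 0.51 and 0.70 on the 0.5 h arrays. The 1 h arrays read 1.56, 1.45 and 1.25. It then read 3.30, 3.50 and 3.56 at 3 h, and the 6 h arrays read 3.06, 2.72 and 2.75, the 9 h arrays 2.83, 2.54 and 3.00. Every array from 3 h on lay above every earlier array. The change against 0 h was 2.28 ± 0.17 (SE) at 3 h, or 4.85-fold (adjusted P-value 2.8e-06), 3.16-fold at 6 h and 3.05-fold at 9 h (adjusted P-values 2.0e-05 at both). Against 1 h it was 4.10-fold higher at 3 h, 2.67-fold at 6 h and 2.58-fold at 9 h (adjusted P-values 2.9e-05, 9.6e-05 and 9.3e-05), and on the second scan day alone its log2 change at 9 h was 1.26 (adjusted P-value 0.0018). At 0.5 h the change was -0.39 with an interval of -0.76 to -0.02 (adjusted P-value 0.206), and it was called lower, at -0.55, when arrays were scaled to their median (adjusted P-value 0.049). At 1 h it was 0.24 with an interval of -0.13 to 0.62. The SD between the 10 spots of 1 array was 0.0718 in the median, against an SD between the arrays of a time-point of 0.133 to 0.329. The dim probe, above background on 13 of 18 arrays, was above it on none at 0.5 h and on 1 at 1 h, and gave called changes of 2.52, 2.24 and 2.13 at 3 h, 6 h and 9 h.

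By its brighter probe Mdm2 had the smallest maximum change of the members, although that of its dimmer probe was above Btg1's. The brighter probe, on chromosome 7 at 56996880 to 56996939, read 1.17 to 1.37 at 0 h, 1.28 to 1.51 at 0.5 h, 1.15 to 1.45 at 1 h, 1.40 to 1.55 at 3 h, 1.58 to 1.66 at 6 h and 1.34 to 1.55 at 9 h. It was called higher only at 6 h, by 0.35 ± 0.10 (SE) or 1.27-fold (adjusted P-value 0.022), and at 6 h against 1 h, by 0.37 (adjusted P-value 0.016). The call against 1 h was lost without replicate 1 or 3 of 1 h, where the change was 0.33 and 0.32 (adjusted P-values 0.059 and 0.052), with scaling to the median (0.101) and with only the 6 arrays compared (0.104). The F-test did not call it (adjusted P-value 0.058), but did with quantile normalization, with the deposited matrix, and when replicate 2 of 1 h was left out (adjusted P-values 0.025, 0.022 and 0.020). The call at 6 h against 0 h was lost without replicate 1 of 0 h and without replicate 1 or 2 of 6 h, where the change was 0.29, 0.33 and 0.34 (adjusted P-values 0.077, 0.063 and 0.059), and with normexp correction or scaling to the median (0.194 and 0.334) or only the 6 arrays compared (0.051). The dimmer probe, at 57005501 to 57005835, gave larger changes of 0.53 and 0.62 for 3 h and 6 h against 0 h (adjusted P-values 0.024 and 0.0052) and was called in the F-test. At 6 h against 1 h the dimmer probe changed by only 0.17, not called (adjusted P-value 0.399). For the brighter probe the 95% interval of the change ended at 0.57 at 6 h and at 0.40 at 3 h.

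**Figure D2:**
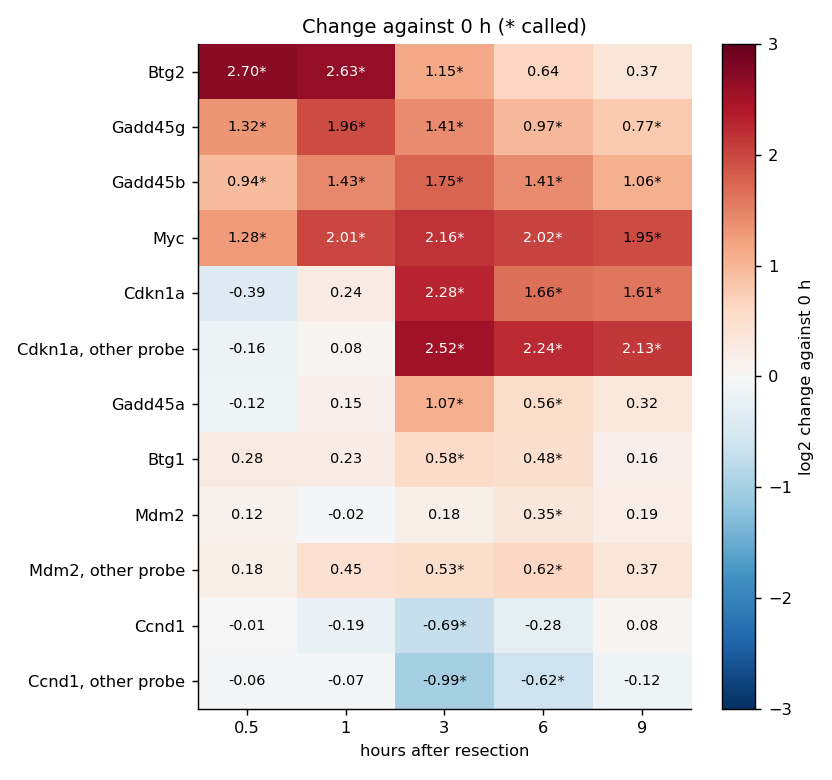
Log2 change against 0 h (colour and printed value) of the 12 probes (rows, brightest probe of a gene first) at 5 time-points (columns, hours after resection), with an asterisk where the probe was called. The 2 probes of Cdkn1a and of Ccnd1 moved in the same direction at 3 h, by 2.28 and 2.52 and by -0.69 and -0.99.

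Of the genes that drive growth and division, Myc rose and Ccnd1 fell. Myc, printed on 10 spots with its probe on chromosome 7 at 98957687 to 98957746, read 0.60, 1.21 and 0.34 in control nerve. It was 2.21, 1.67 and 2.09 on the 0.5 h arrays and 2.39, 2.76 and 3.02 on the 1 h arrays. The 3 h arrays read 2.56, 3.13 and 2.94, the 6 h arrays 2.69, 2.79 and 2.73, and the 9 h arrays 2.60, 2.40 and 3.00. No later array overlapped with 0 h. Its change was 1.28 ± 0.24 (SE) at 0.5 h, or 2.42-fold (adjusted P-value 0.0085), and 4.02-fold at 1 h, 4.48-fold at 3 h, 4.05-fold at 6 h and 3.87-fold at 9 h (adjusted P-values 0.00029, 6.0e-05, 5.4e-05 and 5.3e-05). Against 1 h the intervals were -0.35 to 0.67 at 3 h, -0.50 to 0.52 at 6 h and -0.57 to 0.45 at 9 h. The SD between its 10 spots was 0.0655 in the median, and the SD between the arrays of 0 h was 0.44. Replicate 3 of 0 h gave the lowest and replicate 2 the highest control value for Myc, Btg2 and Gadd45g alike.

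Ccnd1 is measured by a probe on chromosome 1 at 205357582 to 205357641 and a slightly dimmer one at 205359847 to 205359906. The first read 3.77, 3.66 and 3.60 in control nerve, and the 0.5 h arrays read 3.56, 3.75 and 3.72. The 1 h arrays read 3.47, 3.61 and 3.37 and the 3 h arrays 3.02, 2.98 and 2.97. It read 3.19, 3.42 and 3.57 on the 6 h arrays and 3.80, 3.75 and 3.72 on the 9 h arrays, so that the arrays of 3 h lay below all others and those of 6 h still below all of 0 h. The change at 3 h was -0.69 ± 0.10 (SE), or 1.61-fold lower (adjusted P-value 0.00052), and -0.49 against 1 h (adjusted P-value 0.0069). From 3 h to 6 h it rose by 0.40 (adjusted P-value 0.034), the only member called in that step, in which 2.79% of all genes were called higher. At 6 h the change against 0 h was -0.29 with an interval of -0.50 to -0.07, not called (adjusted P-value 0.04997, unadjusted 0.013), but it was called with a robust trended variance prior (adjusted P-value 0.029) and without replicate 3 of 6 h (-0.37, adjusted P-value 0.021). At 9 h the interval of the change against 0 h was -0.14 to 0.29. The second probe gave -0.99 at 3 h and -0.62 at 6 h (adjusted P-values 0.00024 and 0.0035), and its step of 0.37 from 3 h to 6 h was not called (adjusted P-value 0.113). Against 1 h the call of the first probe at 3 h was lost with normexp correction and when arrays were scaled to their median (-0.53 and -0.44, adjusted P-values 0.156 and 0.103).

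Against 1 h, Cdkn1a and Gadd45a were called higher at 3 h, as were 5.58% of all genes, and Btg2 and Ccnd1 lower, as were 4.57%. At 6 h Cdkn1a and Mdm2 were called higher (11.4% of all genes) and Btg2 and Gadd45g lower (12.6%). The call of Mdm2 did not hold without replicate 1 or 3 of 1 h or with scaling to the median, and its dimmer probe was not called. At 9 h Cdkn1a was called higher (11.7%) and Btg2 and Gadd45g lower (13.8%). A fit on the second scan day alone gave 4, 4 and 3. Some settings also called higher, against 1 h, members that the reported fit did not. Gadd45a at 6 h (0.41, adjusted P-value 0.049, unadjusted 0.013) was called with normexp correction, quantile normalization, scaling to the median and the deposited matrix. Ccnd1 at 9 h (0.27, adjusted P-value 0.061) was called with normexp correction, quantile normalization, the deposited matrix and array weights. The second Ccnd1 probe changed by -0.05 at 9 h against 1 h, not called (adjusted P-value 0.800). It was called lower at 3 h and at 6 h against 1 h (-0.92 and -0.55, adjusted P-values 0.00071 and 0.0072). Btg1 at 6 h was called with quantile normalization and the deposited matrix (0.36 and 0.37, adjusted P-values 0.020 and 0.014). At 3 h against 1 h, Btg1 (0.35, adjusted P-value 0.062) was called with only probes above background on all arrays, with array weights and with a robust trended prior. The adjusted P-values there were 0.045, 0.046 and 0.032. Mdm2 at 9 h against 1 h was called with array weights (0.26, adjusted P-value 0.016). Between 0.5 h and 1 h limma called no member and none of all 27199 genes (0%), of which 3494 had an unadjusted P-value under 0.05. Of the members, Cdkn1a, Gadd45b, Gadd45g and Myc were among those, with changes of 0.63, 0.49, 0.65 and 0.73, in a step where scan day and time cannot be told apart. Between 6 h and 9 h no member was called, and of all genes 3 were (0.0110%), with 3139 at an unadjusted P-value under 0.05. At 0.5 h, where all 6 arrays shared a scan day, a fit on those arrays alone called only Btg2, and the other 3 had adjusted P-values of 0.062 (Myc), 0.067 (Gadd45b) and 0.073 (Gadd45g) at the same changes.

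**Figure D3:**
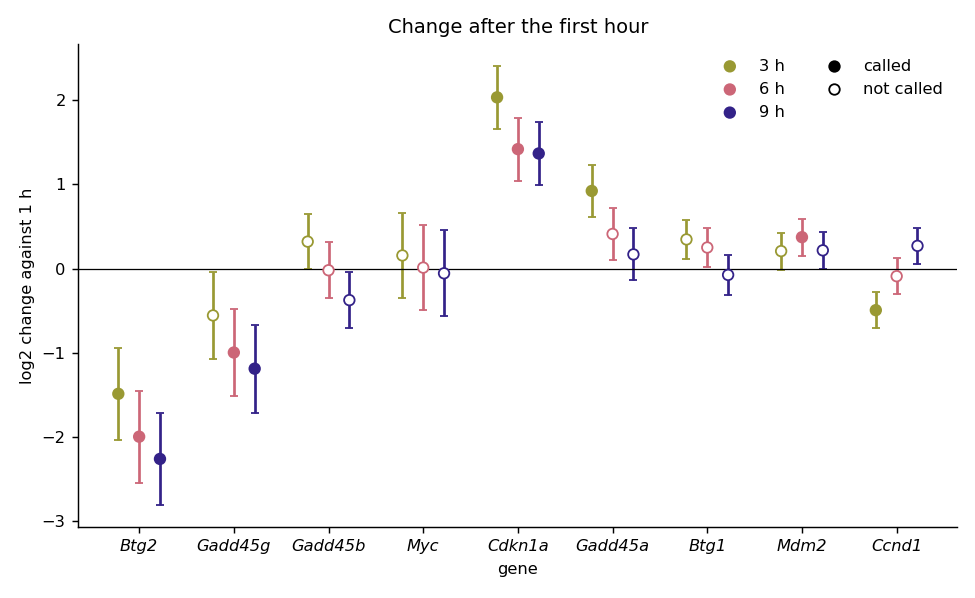
Log2 change of the brightest probe of each gene (x axis) at 3 h, 6 h and 9 h against 1 h (y axis), with 95% intervals from the fit over 18 arrays, filled where called. Cdkn1a lay above 0 and Btg2 below 0 at all 3 time-points, and the intervals of Myc included 0 at each.

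For each member called in the F-test, the 3 genes with the most similar course over the 18 arrays were found. They were taken from 4829 other genes named through RefSeq, called in the F-test and above background on all arrays. Coq10b was among the 3 for both Gadd45b and Btg1. The likeness is Pearson's r, given as a description of arrays that also share time-points, labelling and scan days. For Btg2 they were Egr1 (0.976), Dusp1 (0.966) and Ccn1 (0.961). Egr1, an early response transcription factor, had changes of 3.85 at 0.5 h and 0.98 at 9 h. For Gadd45g they were Ccnl1 (0.931), Apold1 (0.920) and Plk3 (0.913), and for Gadd45b Coq10b (0.939), Mt1 (0.936) and Rnd1 (0.930). Myc was closest to Cebpd (0.971), C3h11orf96 (0.957) and Dusp5 (0.956). Cdkn1a was closest to Map3k6 (0.968), Fgf2 (0.965) and Ythdf2 (0.954), and Fgf2 changed by 0.08 at 1 h and by 1.61 at 3 h. Gadd45a was closest to Tbx3 (0.952), Kdm6b (0.926) and Hamp (0.917). Btg1 was closest to Rnf138 (0.862), Coq10b (0.862) and Tsc22d2 (0.843), and Ccnd1 to Commd7 (0.910), Tradd (0.893) and Gtf2e2 (0.892).

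Other genes of the same pathways were counted in 9 lists that leave out the members. Of 164 such genes tested 79 were called in the F-test, beside 34.6% of all genes. All genes were called higher and lower in 7.15% and 6.83% at 3 h and in 15.8% and 15.4% at 9 h. The F-test called 23.5% of the p53 regulators, 25.9% of the p53 targets, 33.3% of the S, G2 and M phase genes and 25.0% of the BTG list, and the difference of these shares from that of all genes was not tested. Of 17 regulators of p53 only 4 were called in the F-test, among them Chek1, Chek2 and Ppm1d, and none of the 17 was called higher at any time against 0 h, while 1 was called lower at 1 h and 2 each at 3 h, 6 h and 9 h, beside 2.04%, 6.83%, 13.0% and 15.4% of all genes. Against 1 h 2 were higher and 2 lower at 6 h and 3 were higher at 9 h, beside 11.4%, 12.6% and 11.7% of all genes. Chek2, a kinase that activates p53, changed by -1.03 ± 0.18 (SE) at 3 h (limma adjusted P-value 0.0018). Of 27 other p53 targets 7 were called in the F-test. Higher calls numbered 6 and lower calls 2, at 3 h as at 9 h, and the median changes of -0.07 and 0.01 were close to those of all genes, 0.00037 and 0.014. The cytokine Gdf15, a dim probe well above background on 2 of the 3 arrays of 0 h, rose by 2.31 ± 0.29 at 6 h, the kinase Plk3 by 1.96 ± 0.19 at 1 h, the death agonist Bid by 1.52 ± 0.19 at 9 h and the tetraspanin Cd82 by 0.88 ± 0.09 at 9 h. Sesn1, a stress-responsive inhibitor of mTORC1, changed by -0.76 ± 0.19 at 9 h, and the exonuclease Aen by 0.61 ± 0.16.

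Of the 7 other CDK inhibitors 5 were called in the F-test, in both directions, and 4 of these were called first at 6 h or 9 h. Cdkn2d (p19) was already 0.95 higher at 3 h and rose by 0.96 ± 0.15 at 6 h, and Cdkn2b (p15) rose by 1.09 ± 0.22 at 9 h. Cdkn2c (p18) changed by -1.08 ± 0.15, Cdkn1c (p57) by -0.93 ± 0.19 and Cdkn3, a CDK phosphatase, by -0.87 ± 0.18 at 9 h. Of 18 G1 cyclins, kinases, Rb and E2f genes 10 were called in the F-test. At 3 h 1 was higher and 3 were lower, and by 9 h 6 were higher with 3 lower. E2f1 changed by -0.78 ± 0.10 at 6 h, the pocket protein gene Rbl2 by -0.86 ± 0.15 and the cyclin D kinase Cdk6 by 0.76 ± 0.14 at 9 h. Cyclin E1 (Ccne1) was lower at 3 h, by -0.63 ± 0.17, as Ccnd1 was. Of 27 genes of the S, G2 and M phases 9 were called in the F-test, and 8 were lower and none higher at 3 h, with a median of -0.43. At 9 h 11 were lower and 1, Mcm5, was higher. The checkpoint kinase Bub1 changed by -0.73 ± 0.13 at 3 h and Bub1b by -1.06 ± 0.22 at 9 h.

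Among 13 partners and antagonists of Myc 7 were called in the F-test. Max, its dimer partner, changed by -0.04 at 1 h, not called, and rose by 1.25 ± 0.32 at 6 h, and Mxd1, which competes for Max, was 1.26 ± 0.18 higher at 3 h. Mxd3 and Mxd4 were lower at 9 h, by -0.83 ± 0.13 and -0.66 ± 0.10, and the kinases Pim1 and Pim3 rose by 1.63 ± 0.27 at 6 h and 1.18 ± 0.12 at 3 h. All 23 tested genes of a list of Myc targets in ribosome biogenesis and metabolism were called in the F-test, against 34.6% of all genes. None was called higher at 0.5 h or 1 h, when Myc was already called, 11 were at 3 h, 19 at 6 h and all 23 at 9 h, and their median change went from -0.11 at 1 h to 0.38 at 3 h, 0.68 at 6 h and 0.85 at 9 h. Against 1 h, within the later scan day but for 1 array of 9 h, 14, 20 and 22 of them were called higher at 3 h, 6 h and 9 h. Rcl1, of pre-rRNA processing, rose by 2.14 ± 0.15, and Nop58, a core protein of the box C/D particles, by 1.44 ± 0.15 at 9 h. The helicase Ddx21 rose by 1.39 ± 0.15 at 6 h.

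In the BTG and TOB family with the CCR4-NOT deadenylase, 4 of 16 genes tested were called in the F-test and none at 3 h against 0 h, where the median was -0.06. Prmt1, an arginine methyltransferase that binds BTG proteins, rose by 0.76 ± 0.12 at 9 h and Btg3 by 0.48 ± 0.12 at 6 h. Of 18 partners of the Gadd45 proteins and other growth arrest or damage inducible genes 11 were called in the F-test. At 0.5 h 4 were higher and 1 lower, and at 9 h 5 were higher and 3 lower. The early response gene Ier3 rose by 1.05 at 0.5 h and 1.68 ± 0.15 at 6 h, and Klf4, a factor that can switch on Cdkn1a, rose by 1.38 ± 0.16 at 0.5 h and was 0.18 above 0 h at 6 h, not called. Ppp1r15a (Gadd34) rose by 0.96 ± 0.14 at 1 h. Of the kinases of p38, to which the Gadd45 proteins signal, Map2k3 rose by 1.07 ± 0.14 at 6 h and Map2k6 changed by -1.21 ± 0.13 at 9 h.

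**Figure D4:**
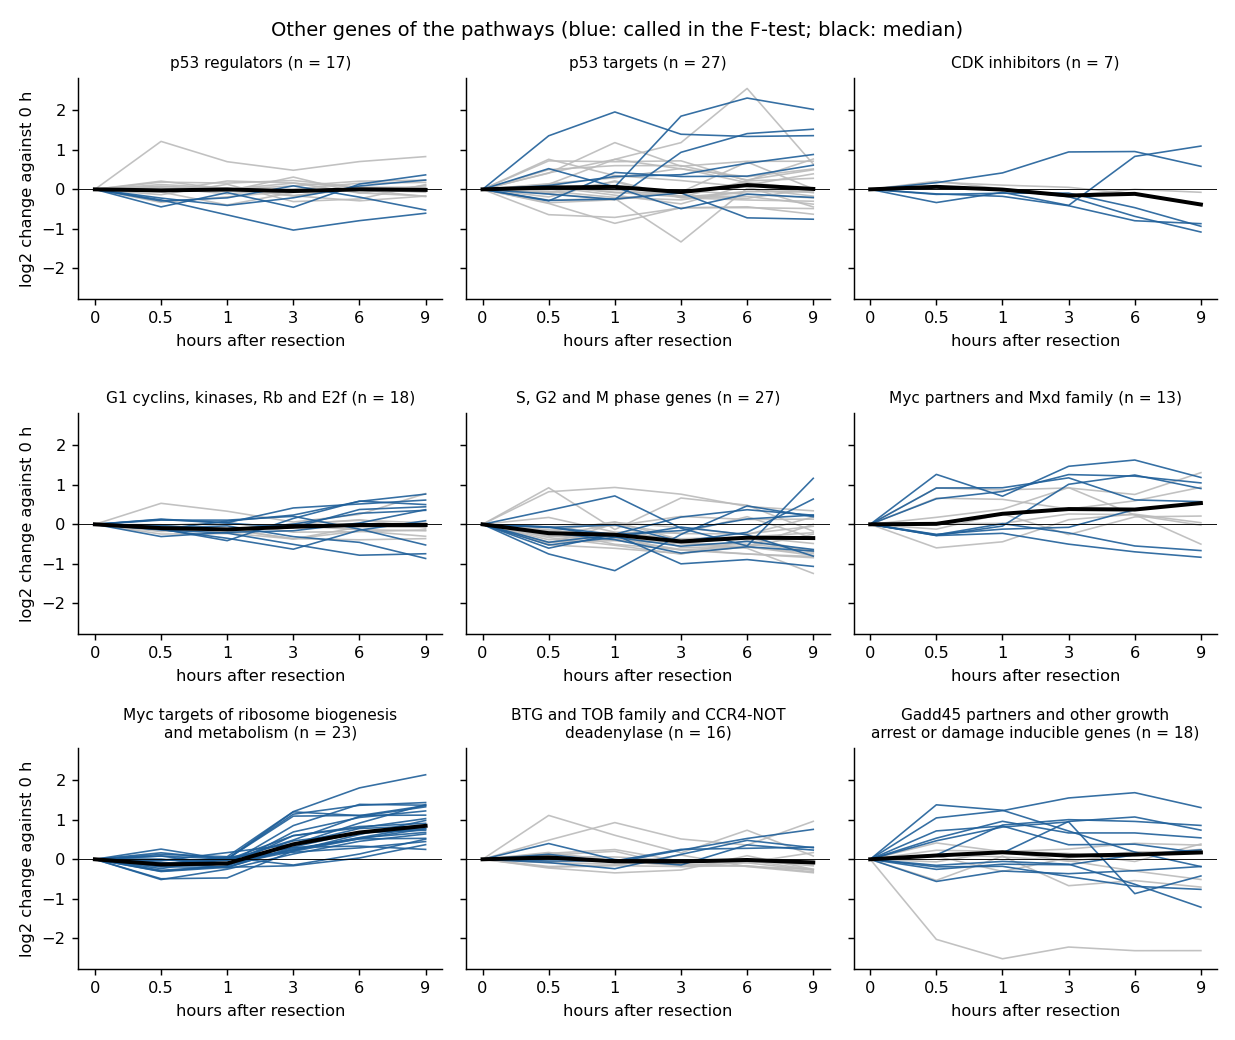
Log2 change against 0 h (y axis) of the genes of 9 pathway lists without the 9 members, by hours after resection (x axis, evenly spaced categories, 0 h set to 0). Each thin line is 1 gene, blue where called in the F-test and grey otherwise, and the thick line is the list's median, which for the 23 Myc targets reached 0.85 at 9 h.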

How the data were processed

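Proximal sciatic nerve was hybridised to 18 single-colour (Cy3) Agilent arrays, grouped into 6 time-points by the sample labels. The authors deposited scanner output of Feature Extraction (version 10.5.1.1), whose processed signal is a linear intensity, background-subtracted and detrended but not normalized between arrays, with flags for control, outlier and dim spots. The deposited matrix of log2 values holds the same distribution on every array, keeps the scanner's order of probes (lowest Spearman's rho 0.999987) and has a column median of 7.75. Its genes are not centred, and it served as an alternative.

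Here control and outlier spots were left out (58 to 179 outliers on an array, no saturated spot), log2 processed signals were taken relative to the 75th percentile of the array, and spots of a probe were averaged. Well above background were 65.9% to 93.5% of spots, which with the number of arrays limits the precision. Tested were probes that passed this flag on all 3 arrays of some time-point. Probes were named through accession, symbol or synonym in RefSeq's GRCr8 table (21166 of 41012), or else as in the files. Probe coordinates are those of the files (rn4), for which no gene models were used here.

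The fit was limma's (R 4.3.3, limma 3.58.1, prior degrees of freedom 1.94), with 1 model of 6 time-points. On simulated data of 31912 probes, nearly all of them unchanged, the comparison of 6 h with 0 h found 63% of 2-fold and 84% of 4-fold changes. It made 5 false calls. The simulated noise was independent between arrays, with no effect of slide or scan day, so these figures need not hold for the real arrays. Promoters and motifs were read from RefSeq with Python 3.11.15 and pandas 2.3.3, and figures drawn with matplotlib 3.10.9. The members and lists were chosen with earlier results of these data known. Genes of the pathway lists were named by the F-test and the size of their largest change (at most 6 a list), and similar genes by Pearson's r (3 a member). The alternatives were normexp background, quantile or median scaling, the deposited matrix, other filters and thresholds, array weights and a trended prior. Further ones were slide or replicate number in the fit, fits on 1 scan day alone or on only the 6 arrays compared, and each array left out. Sequences of the array's probes are not printed. Some genes of the lists are not reported here by name.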

Additional observations from a re-analysis of the deposited data

How the results depend on the processing

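No called change of a member turned its direction under these alternatives. Of 1242 member values under another setting 1167 neither lost nor gained a call, 50 lost and 25 gained one. Of 1458 values with 1 array left out 1436 did neither, 10 lost and 12 gained one. Most of these 1458 left out an array of neither compared time-point, which moves only the shared spread and not the change, so their agreement is partly built in. Of 2412 log2 changes under the alternatives 32 had the other sign, none of them called. They belonged to 13 changes of at most 0.17 in size (such as Mdm2 at 1 h and Ccnd1 at 0.5 h). Many of the 2412 could not turn, since other thresholds, another variance prior or leaving out an array of neither compared time-point keep the log2 change the same. With normexp background correction 2 members instead of 4 were called at 0.5 h, 4 instead of 7 at 6 h and 42 instead of 79 pathway genes in the F-test. The median change of all genes was 0.44 at 3 h in that setting, and -0.16 at 0.5 h and at 9 h with scaling to the median. With only the 6 arrays compared, which leaves fewer degrees of freedom, 1 member was called at 0.5 h (likewise on the first scan day alone). In that setting 6 instead of 8 were called at 3 h, 5 instead of 7 at 6 h and 3 instead of 4 at 9 h. Against 1 h it called 2 instead of 4 at 3 h and 3 instead of 4 at 6 h. Among the calls lost were Btg1 and Btg2 at 3 h (adjusted P-values 0.062 and 0.078), Gadd45g at 6 h and 9 h (0.062 and 0.096) and Ccnd1 at 3 h against 1 h (0.096). With a 2-fold limit added, 3 were called at 6 h, 2 at 3 h and 2 at 6 h against 1 h, and 27 pathway genes in the F-test. With array weights 5 instead of 3 were called at 9 h against 1 h, and the cause was not tested.

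With 1 array left out, the members called ranged from 4 to 4 at 0.5 h and at 1 h, 8 to 8 at 3 h, 5 to 8 at 6 h and 3 to 5 at 9 h. Against 1 h they ranged from 4 to 5 at 3 h, 3 to 5 at 6 h and 3 to 4 at 9 h. In the F-test they ranged from 8 to 9, and pathway genes from 71 to 85. Deviations of same-numbered arrays correlated between -0.261 and 0.565 (median 0.0698) and those of different-numbered arrays between -0.519 and 0.379 (median 0.00666). Not every same-numbered pair correlated above 0.1, so the numbers were not taken as pairs. With replicate number as a block 3 members were called at 9 h, where Gadd45g was lost at the same change of 0.77 (adjusted P-value 0.036, unadjusted 0.012), and 90 pathway genes in the F-test. Slide as a random block changed none of these counts of calls. Since each slide held arrays of only 1 time-point, that fit cannot tell slide from time, and the part of slide was not tested. The other counts of members with replicate number as a block were 8 in the F-test, 4, 4, 8 and 7 at 0.5 h, 1 h, 3 h and 6 h, and 4, 4 and 3 at 3 h, 6 h and 9 h against 1 h. With 3 arrays a time-point, changes such as those of Mdm2 and Btg1 are near the limit of what the fit can call.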
